A study of Mus musculus with 9 samples.

Results

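The transcriptome of GT1-7-OX1 cells after 8 h of orexin A (OxA) was compared with that of time-matched vehicle cultures. The members are the 3 cultures given 200 nM OxA for 8 h and the 3 cultures given vehicle for 8 h, 6 of the 9 samples in the series, taken by their labels, and every gene in the count table was considered. The other 3 cultures were given 200 nM OxA for 3 h and serve here only to place the 8 h levels in time. GT1-7 is a mouse hypothalamic line derived from a tumour of GnRH neurons, driven by SV40 T antigen under the GnRH promoter. All 9 cultures carry human OX1, delivered by a lentivirus in which a CMV promoter drives the receptor and an EF1 promoter drives copGFP, in a transduced population that had been chosen by its fluorescence. The vehicle was water, the medium was replaced with fresh medium at treatment, and no culture without the receptor is among the 6, so that the receptor, the medium change and the virus are shared by both groups.

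Orexin A is a hypothalamic neuropeptide that promotes wakefulness, feeding and reward. It acts on the G protein-coupled receptors OX1 and OX2, which couple mainly to Gq and phospholipase C, raise cytosolic calcium and activate protein kinase C and the ERK cascade. ERK signaling first induces immediate early genes, whose protein products are transcription factors, and these factors and the feedback inhibitors made with them shape a later wave of secreted, structural and metabolic genes. Over a similar time, MYC and nutrient signals can raise genes of ribosome assembly.

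RNA was depleted of ribosomal RNA and sequenced as stranded libraries on a NextSeq 500, and reads per gene were deposited as raw counts. Totals were 16217786 to 20445364 counts in the OxA 8 h cultures and 17293093 to 18168541 in the vehicle cultures, with 21031 to 21618 genes detected over the 9 cultures. No culture stood apart in depth, and the mitochondrial ribosomal RNA *mt-Rnr2* took 11 to 11.8% of the counts in these 6. Where leaving out 1 culture moved a count of genes by over 1.5 times, the count without that culture follows it. Values below are normalized counts, that is raw counts divided by the library's effective size relative to the mean of the 9 libraries, and they compare a gene between cultures but not a gene with another gene of different length. A gene was called where the edgeR quasi-likelihood test gave an adjusted p under 0.05 over all genes tested. Since each group has 3 cultures of a single line, p-values measure the spread between these cultures, and a bulk library cannot tell more RNA per cell from more cells that make it. The defining GnRH marker was abundant in every culture (*Gnrh1*, 13109.5, 12254 and 13177 normalized counts in OxA 8 h cultures, against 17066, 16836 and 14876 in vehicle cultures). Means below are given ± SD over the 3 cultures of a group. The neuronal genes *Six6* (3618 ± 73.5 normalized counts in OxA 8 h cultures and 3702 ± 36 in vehicle cultures) and *Th* (1281 ± 27.1 normalized counts in OxA 8 h cultures and 1298 ± 39.6 in vehicle cultures) were also well detected. The neuronal SNARE gene *Snap25* was close to absent, with a mean of 3.43 normalized counts in OxA 8 h cultures and 1.94 in vehicle cultures. Markers of other cells were not all low. Fibroblast and mural cell markers summed to 1503 to 1751 normalized counts in OxA 8 h cultures and 1542 to 1831 in vehicle cultures, most of it *Col1a2*, with 1 of 4 tested lower and none higher. Endothelial markers summed to 275 to 281 in OxA 8 h cultures and 348 to 379 in vehicle cultures, without overlap and most of it *Kdr*. Of 3 tested, 1 was higher (0 without vehicle replicate 3) and 1 lower. Astrocyte markers summed to 128 to 144 in OxA 8 h cultures and 101 to 139 in vehicle cultures, and oligodendrocyte markers to 75.1 to 95.2 in OxA 8 h cultures and 81.1 to 99.3 in vehicle cultures. Leukocyte markers summed to 252 to 285 in OxA 8 h cultures and 140 to 154 in vehicle cultures, most of it *Csf1r*, while *Ptprc*, the pan-leukocyte gene, had no count in the 6 cultures. *Csf1r*, the receptor of macrophage colony-stimulating factor, had 250.2, 246 and 215 normalized counts in OxA 8 h cultures, against 120.3, 118 and 125 in vehicle cultures, and was called higher (log2 fold change 0.97, SE 0.11, adjusted p = 4.01e-07). The part of any other cell type in the results was not tested.

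After 8 h of OxA the largest rises included genes of pericellular proteolysis, EGF receptor ligands, matrix proteins and a neuropeptide precursor. The largest falls included genes of ion channels, adhesion proteins and proteins of vesicle and microtubule transport. Of 15407 genes tested, 4377 were called (28.4%), 2359 higher (15.3%) and 2018 lower (13.1%). Counts of list members below are to be read beside these shares of all genes. Most changes were small, with a median size of 0.32 on the log2 scale among called genes, and the median log2 fold change of all genes tested was -0.0081. Changes of at least 2-fold were more often rises, with 192 genes higher (1.25%) and 94 lower (0.61%) of 286 in all (1.86%), and 4-fold changes were almost all rises, with 60 genes (0.389%) against 4 (0.026%). The values of the OxA 8 h and vehicle cultures did not overlap for 6341 genes (41.2%), which include 4201 of the 4377 called. A lack of overlap in a called gene below is therefore usual and adds little to its call.

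**Figure D1:**
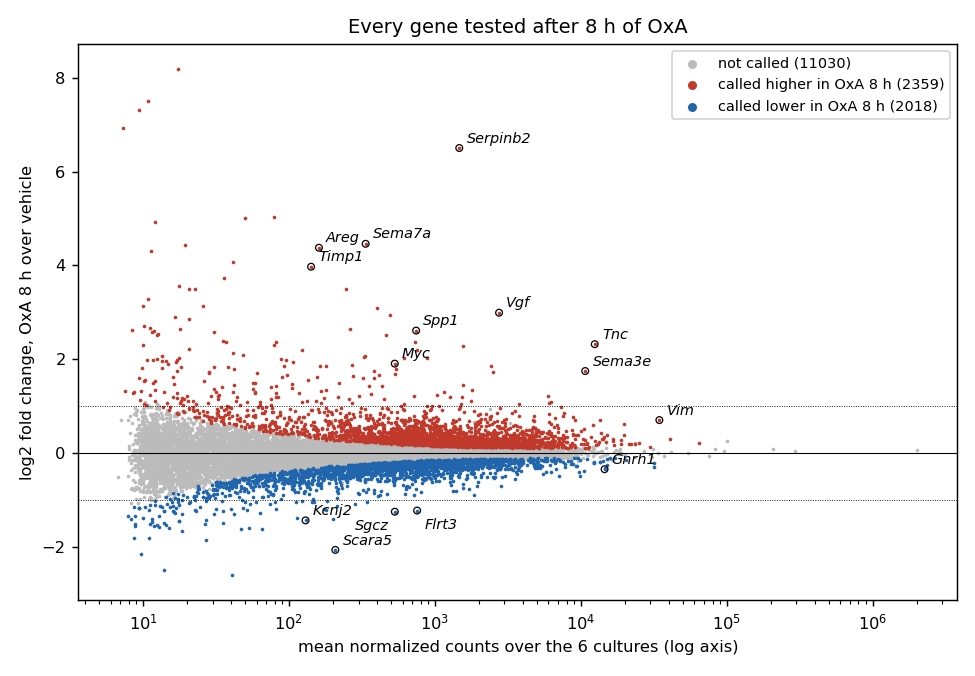
Each point is a gene tested, placed by its mean normalized counts over the 6 cultures (log axis) and its log2 fold change of OxA 8 h over vehicle, with called genes in colour and dotted lines at 2-fold. Rises reach beyond 4 on the log2 scale up to high levels, as for *Serpinb2* at 6.50 and *Sema7a* at 4.46, while the largest fall where the mean reaches 50 counts is *Scara5* at -2.07; points at the far left with the highest fold changes have few or no vehicle counts, so their height depends on the prior count.

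*Serpinb2*, the gene of plasminogen activator inhibitor 2, had the largest rise of all genes whose mean reached 50 normalized counts. It reached 3475, 2677 and 2568 normalized counts in OxA 8 h cultures, against 33.4, 25.7 and 36.4 in vehicle cultures, a log2 fold change of 6.50 (SE 0.22, adjusted p = 2.71e-06). The lowest OxA 8 h culture was therefore far above the highest vehicle culture. It lies on chromosome 1 at 107511423 to 107535478, plus strand, in GENCODE M21 on GRCm38 (mm10). *S100a7a*, an S100 calcium-binding protein gene, had 171, 151 and 138 normalized counts in OxA 8 h cultures, against 1.91, 3.96 and 7.88 in vehicle cultures, and *Tmem171*, a membrane protein gene, had 120.2, 79 and 94 normalized counts in OxA 8 h cultures, against 2.86, 0.989 and 4.93 in vehicle cultures. These 2 genes had few counts in vehicle, so their folds of 32.8 and 32.1 are imprecise. The largest changes were named only where no cultures overlapped between the groups. *Sema7a*, a membrane-anchored semaphorin that binds integrins and a plexin, reached 749, 552 and 624 normalized counts in OxA 8 h cultures, against 23.9, 30.7 and 32.5 in vehicle cultures (log2 fold change 4.46, SE 0.15, adjusted p = 6.52e-14). *Prkg2*, the membrane-bound cGMP-dependent protein kinase, had 817, 626 and 703 normalized counts in OxA 8 h cultures, against 86.9, 69.2 and 95.6 in vehicle cultures (log2 fold change 3.09, SE 0.12, adjusted p = 1.21e-12). *Cd109*, a surface protein that restrains TGF-beta receptors, had 489.7, 469 and 403 normalized counts in OxA 8 h cultures, against 43.9, 35.6 and 40.4 in vehicle cultures (log2 fold change 3.50, SE 0.13, adjusted p = 1.39e-15).

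**Figure D2:**
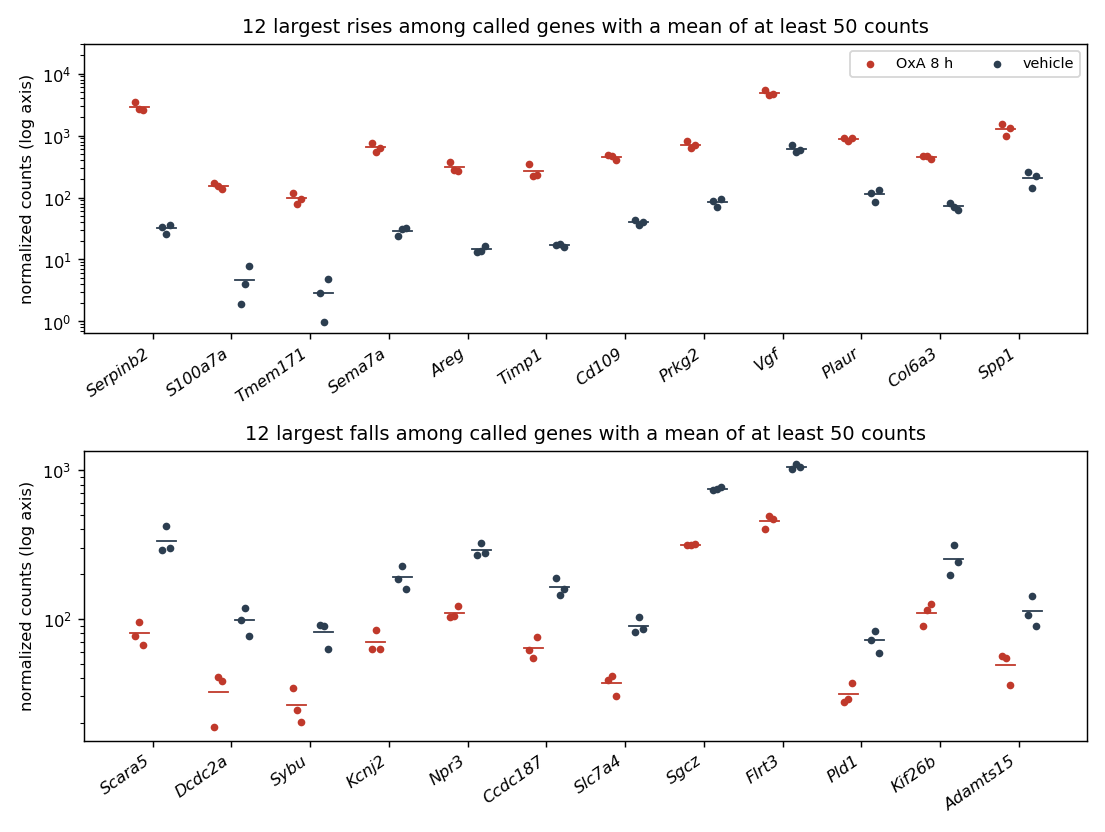
Normalized counts (log axis) of the 12 genes with the largest rises and the 12 with the largest falls among called genes averaging 50 counts or more, 1 point per culture and a line at the mean of 3, with OxA 8 h left of vehicle. Genes were shown only if their groups did not overlap. *Sgcz* has the tightest falls (314, 313 and 319 in OxA 8 h cultures and 731, 743 and 768 in vehicle cultures).

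The receptor itself could be read only in part. *Hcrtr1*, the mouse gene of OX1, named after its values were seen, had 2027, 1531 and 1655 normalized counts in OxA 8 h cultures, against 1384, 1128 and 1151 in vehicle cultures (log2 fold change 0.51, SE 0.13, adjusted p = 0.0343). That call was lost without vehicle replicate 2 (adjusted p = 0.069), vehicle replicate 3 (adjusted p = 0.127) or OxA 8 h replicate 3 (adjusted p = 0.078). With no culture left out, it was also lost when all 3 groups were fitted together (adjusted p = 0.0541). Whether reads of the human transgene were counted at the mouse gene was not tested, so this level may hold both. *Hcrtr2*, the gene of OX2, had no count in any of the 6 cultures. Of 36 tested genes of receptor coupling (Gq and other G proteins, phospholipase C, protein kinase C, RasGRP exchange factors, receptor kinases and arrestins), 10 were higher and 7 lower, with a median log2 fold change of -0.02, near that of all genes. The changes fell on particular members. *Prkca*, a calcium- and diacylglycerol-activated protein kinase C, had 1954, 1984 and 1954 normalized counts in OxA 8 h cultures, against 946, 902 and 1121 in vehicle cultures (log2 fold change 0.98, SE 0.062, adjusted p = 1.6e-10). *Rasgrp1*, a diacylglycerol-activated exchange factor for Ras, went the other way with 1349, 1315 and 1238 normalized counts in OxA 8 h cultures, against 2391, 2519.7 and 2317 in vehicle cultures (log2 fold change -0.89, SE 0.051, adjusted p = 3.26e-12). *Plcb1*, a phospholipase C that Gq activates, was also lower, at 462 ± 34.3 normalized counts in OxA 8 h cultures and 740.0 ± 86.1 in vehicle cultures (log2 fold change -0.69, SE 0.081, adjusted p = 9.17e-07). *Gna11*, a Gq-class subunit, averaged 2777 ± 205 normalized counts in OxA 8 h cultures and 2979.7 ± 141 in vehicle cultures and was not called (adjusted p = 0.143). Among 10 tested RGS genes, whose proteins shorten G protein signals, 3 were higher and 3 lower. *Rgs8* had 156, 124 and 141 normalized counts in OxA 8 h cultures, against 43.9, 23.7 and 36.4 in vehicle cultures (log2 fold change 2.01, SE 0.18, adjusted p = 1.49e-08), and *Rgs6* 78.7, 113 and 67.1 normalized counts in OxA 8 h cultures, against 30.6, 26.7 and 35.5 in vehicle cultures (log2 fold change 1.49, SE 0.21, adjusted p = 9.68e-06). *Rgs17* averaged 1733 ± 156 normalized counts in OxA 8 h cultures and 2384 ± 111 in vehicle cultures (log2 fold change -0.47, SE 0.057, adjusted p = 2.05e-06).

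Inhibitors that ERK and EGF receptor signaling induce against themselves were higher as a group. Of 20 tested MAP kinase phosphatases, Sprouty and Spred proteins and EGF receptor inhibitors, 17 were called higher and none lower, 6 of them at least 2-fold, with a median log2 fold change of 0.60. *Errfi1*, which encodes a direct inhibitor of the EGF receptor kinase, had 2716, 2233 and 2811 normalized counts in OxA 8 h cultures, against 498, 489 and 609 in vehicle cultures (log2 fold change 2.28, SE 0.12, adjusted p = 4e-06). *Dusp4*, a nuclear ERK phosphatase, had 149, 123 and 138 normalized counts in OxA 8 h cultures, against 22.9, 14.8 and 41.4 in vehicle cultures (log2 fold change 2.36, SE 0.23, adjusted p = 1.68e-07), and *Dusp5*, another nuclear ERK phosphatase, 465, 357 and 452 normalized counts in OxA 8 h cultures, against 96.4, 129.5 and 121 in vehicle cultures (log2 fold change 1.87, SE 0.12, adjusted p = 3.63e-10). In each of the 3 genes the lowest OxA 8 h culture exceeded the highest vehicle culture. *Spred2*, whose protein blocks Ras activation of Raf, averaged 819.9 ± 73 normalized counts in OxA 8 h cultures and 252 ± 39.2 in vehicle cultures (log2 fold change 1.69, SE 0.096, adjusted p = 1.86e-10). *Dusp6*, the cytoplasmic ERK phosphatase, had 552, 472 and 708 normalized counts in OxA 8 h cultures, against 165, 137 and 263 in vehicle cultures and an adjusted p of 0.0156, which rose to 0.0606 without vehicle replicate 1 and to 0.0634 without OxA 8 h replicate 1. The kinase *Sgk1*, which acts downstream of PI3 kinase and regulates channels and transporters, had 1233, 1219 and 1295 normalized counts in OxA 8 h cultures, against 244, 264 and 302 in vehicle cultures (log2 fold change 2.20, SE 0.073, adjusted p = 5.52e-16), while *Nedd4*, a ubiquitin ligase of the family whose members SGK kinases regulate, averaged 18720.0 ± 372 normalized counts in OxA 8 h cultures and 18876 ± 137 in vehicle cultures and was not called (adjusted p = 0.786).

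EGF receptor ligands were among the steepest rises. Of 12 tested genes of the family, 6 were higher and 3 lower. *Areg*, the gene of amphiregulin, had 369, 283 and 267 normalized counts in OxA 8 h cultures, against 13.4, 13.8 and 16.7 in vehicle cultures (log2 fold change 4.38, SE 0.19, adjusted p = 2.78e-14), and *Hbegf*, which encodes heparin-binding EGF, had 1307, 1108 and 1267 normalized counts in OxA 8 h cultures, against 221, 204 and 288 in vehicle cultures (log2 fold change 2.36, SE 0.10, adjusted p = 9.83e-10). Betacellulin (*Btc*) had 52.2, 48.5 and 38.1 normalized counts in OxA 8 h cultures, against 7.64, 0 and 7.88 in vehicle cultures (log2 fold change 3.13, SE 0.41, adjusted p = 8.45e-06). *Ereg*, the epiregulin gene, had 110 raw counts over the OxA 8 h cultures (42, 39 and 29) and none in the vehicle cultures, at least 35.7-fold higher when 3 counts over the vehicle group are taken as the limit. The 4 ligands were thus separated between the groups in every culture, as were 4201 of the 4377 called genes. Their receptor gene *Egfr* was close to the detection limit, with means of 6.08 in OxA 8 h cultures and 4.53 in vehicle cultures, and was not tested. *Erbb2*, the ligandless partner receptor, averaged 807 ± 11.1 normalized counts in OxA 8 h cultures and 879.5 ± 50.1 in vehicle cultures and was not called (adjusted p = 0.114). *Erbb4* had 9.72, 6.29 and 13.4 normalized counts in OxA 8 h cultures, against 28.6, 16.8 and 24.6 in vehicle cultures (log2 fold change -1.28, SE 0.35, adjusted p = 0.00688), a call lost without vehicle replicate 1 (adjusted p = 0.0534) or OxA 8 h replicate 2 (adjusted p = 0.0526).

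Immediate early transcription factors were still above vehicle at 8 h. Of 30 tested, 20 were called higher and none lower, 7 of them at least 2-fold, with a median log2 fold change of 0.58. *Runx1*, a developmental factor of blood cells and sensory neurons, had 1352, 1446 and 1427 normalized counts in OxA 8 h cultures, against 293, 353 and 388 in vehicle cultures (log2 fold change 2.03, SE 0.075, adjusted p = 1.21e-14). *Npas4*, a neuronal factor induced by calcium, had 186, 159 and 163 normalized counts in OxA 8 h cultures, against 39.1, 27.7 and 66 in vehicle cultures (log2 fold change 1.93, SE 0.20, adjusted p = 1.34e-06), and *Nr4a1*, an orphan nuclear receptor, had 159, 119 and 157 normalized counts in OxA 8 h cultures, against 29.6, 35.6 and 54.2 in vehicle cultures (log2 fold change 1.85, SE 0.19, adjusted p = 1.47e-07). All 3 genes had no overlap between the groups. Smaller rises were found in *Maff* (1.67), *Egr2* (1.39), *Egr1* (0.81) and *Fosl2* (0.79) on the log2 scale, the last of these the most abundant AP-1 member listed with 6074 ± 240.1 normalized counts in OxA 8 h cultures and 3503 ± 389 in vehicle cultures. *Fos* averaged 575 ± 97 normalized counts in OxA 8 h cultures and 324 ± 69.9 in vehicle cultures (log2 fold change 0.82, SE 0.18, adjusted p = 0.0159), and its call was lost without OxA 8 h replicate 1 (adjusted p = 0.0582). *Jun*, with 3107 ± 356 normalized counts in OxA 8 h cultures and 2479 ± 274 in vehicle cultures, was not called (adjusted p = 0.0652).

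The growth regulator *Myc* had 871, 792 and 853 normalized counts in OxA 8 h cultures, against 201, 197 and 271 in vehicle cultures (log2 fold change 1.91, SE 0.094, adjusted p = 6.15e-12), so that every OxA 8 h culture held more than every vehicle culture. Its partner *Max* averaged 569.7 ± 58.2 normalized counts in OxA 8 h cultures and 448 ± 1.86 in vehicle cultures (log2 fold change 0.34, SE 0.077, adjusted p = 0.00168), whereas *Mxi1*, an antagonist of *Myc* that binds the same partner, had 382, 413 and 445 normalized counts in OxA 8 h cultures, against 641, 648 and 580.2 in vehicle cultures (log2 fold change -0.60, SE 0.075, adjusted p = 1.44e-06). In the network as a whole, 4 of 14 tested genes were higher and 3 lower. The chromatin architecture genes of the HMGA family were also higher. *Hmga2* had 87.5, 72.8 and 73.9 normalized counts in OxA 8 h cultures, against 4.77, 5.93 and 2.96 in vehicle cultures (log2 fold change 4.06, SE 0.29, adjusted p = 2.01e-10), and *Hmga1* 321, 253 and 269 normalized counts in OxA 8 h cultures, against 70.7, 73.2 and 87.7 in vehicle cultures (log2 fold change 1.86, SE 0.13, adjusted p = 1.27e-10), while *Hmgb1*, with 3994 ± 291 normalized counts in OxA 8 h cultures and 3935 ± 106 in vehicle cultures, was not called (adjusted p = 0.852).

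Cytokine genes of the IL-6 family and their signal inhibitors were higher in part. Of 20 tested in the JAK-STAT list, 8 were higher and 2 lower (lower: 1 without OxA 8 h replicates 1 or 2 or vehicle replicates 2 or 3). *Lif*, the leukemia inhibitory factor gene, had 42.4, 41.3 and 47 normalized counts in OxA 8 h cultures, against 7.64, 14.8 and 16.7 in vehicle cultures (log2 fold change 1.72, SE 0.28, adjusted p = 3.62e-05). *Socs3*, which encodes the inhibitor that LIF signaling induces, had 622, 601 and 667 normalized counts in OxA 8 h cultures, against 221, 189 and 284 in vehicle cultures (log2 fold change 1.44, SE 0.11, adjusted p = 1.5e-08), and the oncostatin M receptor gene *Osmr* 288, 267 and 216 normalized counts in OxA 8 h cultures, against 98.3, 88 and 116 in vehicle cultures (log2 fold change 1.35, SE 0.13, adjusted p = 3.23e-08). In the NF-kappaB list 7 of 12 were higher, 4 without vehicle replicate 1 or OxA 8 h replicate 3, and none lower. Its leading members were the chemokine *Cxcl1*, with 50.5 ± 1.82 normalized counts in OxA 8 h cultures and 25.1 ± 2.86 in vehicle cultures, and *Tnfaip3*, a feedback deubiquitinase, with 92.3 ± 22.9 normalized counts in OxA 8 h cultures and 46.3 ± 16.4 in vehicle cultures.

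Promoter letters of 3 of these genes are shown because the AP-1 motif, the site that dimers of Fos and Jun proteins bind, stood in a larger share of the promoters of genes that rose at least 2-fold than of all promoters. Each line runs from 5′ to 3′ on the strand of the gene and ends within the bases before its start, with the motif in capitals. The sequences are from RefSeq on GRCm38.p6, where *Serpinb2* is chr1:107511299-107511365 (plus strand, motif 94 bases before the start), *Plaur* is chr7:24462384-24462450 (plus strand, 69 bases before) and *Lif* is chr11:4257318-4257376 (plus strand, 228 bases before).
Serpinb2: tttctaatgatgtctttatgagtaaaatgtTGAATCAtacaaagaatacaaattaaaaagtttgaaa
Plaur: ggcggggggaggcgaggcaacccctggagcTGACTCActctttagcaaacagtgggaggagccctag
Lif: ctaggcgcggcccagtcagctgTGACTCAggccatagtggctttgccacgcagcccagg

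Promoters of 250 bases before to 50 after the RefSeq start were matched by symbol for 10248 of the 15407 tested genes. The AP-1 letters TGANTCA, searched on both strands, stood in 641 of them (6.25%), in 23 of 126 promoters of genes called higher at least 2-fold (18.3%) and in 3 of 61 of those called lower at least 2-fold (4.92%). Over all 1742 promoters of genes called higher the share was 7.41%. The cAMP response element TGACGTCA stood in 6 of the 126 (4.76%) and in 3.65% of all, the EGR letters GCGNGGGCG in 15 of the 126 (11.9%) and in 12.3% of all, and the CArG box, the site of serum response factor, in 6 of the 126 (4.76%) and in 1.71% of all. No match of TGACGTCA is also a match of TGANTCA. These are matches of letters and not measured binding, and the shares carry no test. Among the genes described in the text, *Areg*, *Errfi1*, *Maff* and *Plk2* were some of those with a cyclic AMP response element. As examples, the element is printed for *Areg* at chr5:91139508-91139575 (plus strand, 61 bases before the start) and *Errfi1* at chr4:150854989-150855056 (plus strand, 51 bases before).
Areg: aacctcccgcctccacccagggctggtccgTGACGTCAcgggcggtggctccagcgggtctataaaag
Errfi1: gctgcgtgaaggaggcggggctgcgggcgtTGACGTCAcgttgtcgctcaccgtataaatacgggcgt

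**Figure D3:**
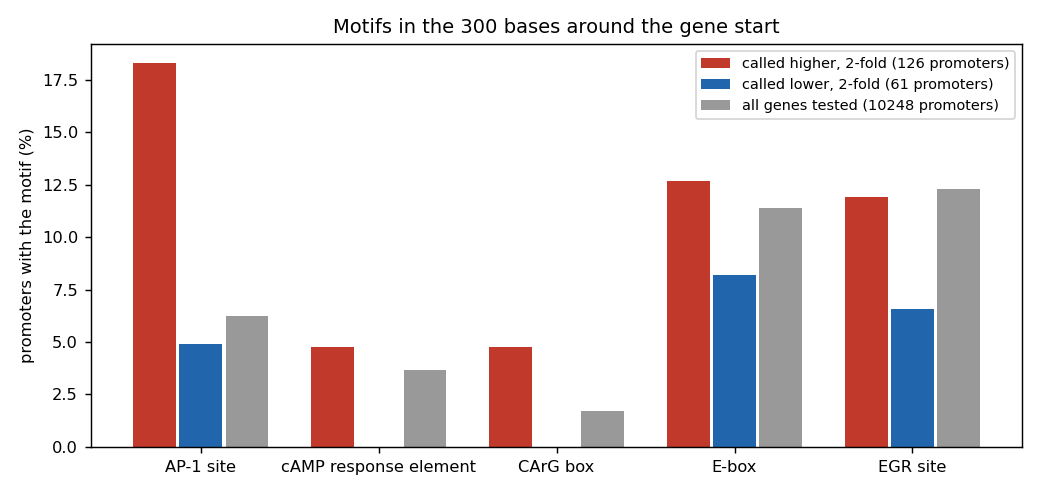
Share of promoters (%) that hold each motif, in genes called higher at least 2-fold (126 promoters), called lower at least 2-fold (61) and all genes tested (10248). The AP-1 bars are at 18.3% of the higher genes and 6.25% of all, while the EGR bars are at 11.9% and 12.3%.

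Plasminogen activation, in which cell-surface enzymes turn plasminogen into plasmin and so degrade matrix, was changed in a receptor and in serpins. Of 19 tested activators, receptors and serpins, 11 were higher and 1 lower, with a median log2 fold change of 0.44. The lower count was 0 without OxA 8 h replicates 2 or 3 or vehicle replicates 1 or 3. Besides *Serpinb2*, the urokinase receptor gene *Plaur* had 898, 821 and 898 normalized counts in OxA 8 h cultures, against 118, 86 and 133 in vehicle cultures (log2 fold change 2.95, SE 0.10, adjusted p = 5.05e-15). Urokinase itself (*Plau*, named after its values were seen) was near 0, with means of 2.3 in OxA 8 h cultures and 0.318 in vehicle cultures, and was not tested. The tissue factor gene *F3* averaged 3141 ± 549.8 normalized counts in OxA 8 h cultures and 1619.6 ± 432 in vehicle cultures, without a call (adjusted p = 0.0577). The serpins of the Serpinb6 and Serpinb9 clusters have near-identical copies, so the rise of *Serpinb6b* (0.87 on the log2 scale) is uncertain in how its reads were assigned. Among 37 tested metalloproteases and their inhibitors 7 were higher and 6 lower, 3 lower without OxA 8 h replicate 2. These shares, 18.9% and 16.2%, were near the 15.3% and 13.1% of all genes tested. *Timp1*, an inhibitor of matrix metalloproteases, had 350.1, 222 and 228 normalized counts in OxA 8 h cultures, against 17.2, 17.8 and 15.8 in vehicle cultures (log2 fold change 3.97, SE 0.23, adjusted p = 3.39e-09), and *Adamts15*, an aggrecan-cleaving protease gene, 56.6, 54.8 and 35.8 normalized counts in OxA 8 h cultures, against 106, 143 and 89.6 in vehicle cultures (log2 fold change -1.19, SE 0.20, adjusted p = 7.83e-05).

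Several matrix genes rose as well. *Tnc*, the gene of the matricellular protein tenascin C, had 22565, 19076 and 20660.5 normalized counts in OxA 8 h cultures, against 3789, 4686 and 3960.1 in vehicle cultures (log2 fold change 2.32, SE 0.10, adjusted p = 3.98e-06). In the deposited TPM values this was 323 ± 22.4 TPM in OxA 8 h cultures and 67.1 ± 8.99 TPM in vehicle cultures. Osteopontin (*Spp1*) had 1515, 978 and 1345 normalized counts in OxA 8 h cultures, against 259, 141 and 225 in vehicle cultures (log2 fold change 2.61, SE 0.30, adjusted p = 0.00414), and *Col6a3*, a chain of collagen VI, had 473, 461 and 422 normalized counts in OxA 8 h cultures, against 83.1, 69.2 and 63 in vehicle cultures (log2 fold change 2.65, SE 0.11, adjusted p = 1.68e-14). Their groups did not overlap, a condition under which *Spp1* and *Col6a3* were named among the largest rises. OxA 8 h replicate 2 was the lowest of its group for *Tnc* and *Spp1*. *Cd44*, the hyaluronan receptor that also binds osteopontin, had 3934, 3755 and 3699 normalized counts in OxA 8 h cultures, against 1074, 932 and 1154 in vehicle cultures (log2 fold change 1.84, SE 0.06, adjusted p = 1.7e-14), whereas *Has2*, a hyaluronan synthase, had 289.9, 298 and 299.9 normalized counts in OxA 8 h cultures, against 524, 626 and 495 in vehicle cultures (log2 fold change -0.89, SE 0.088, adjusted p = 3.87e-08). In the matricellular and basement membrane list 7 of 33 were higher and 10 lower, and the lower count was 4 without vehicle replicate 2 and 6 without vehicle replicate 3, OxA 8 h replicate 1 or OxA 8 h replicate 2. Of 43 collagen genes 7 were higher and 3 lower (lower: 7 without vehicle replicate 3). These are 16.3% and 6.98%, beside 15.3% and 13.1% of all genes. *Col4a5*, the most abundant at 34098 ± 752 normalized counts in OxA 8 h cultures and 33968 ± 932 in vehicle cultures, was not called (adjusted p = 0.998). Among 29 integrin and related receptor genes 8 were higher and 7 lower, 4 lower without vehicle replicate 1 or 2.

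The actin cytoskeleton list moved upward, with 24 of 46 tested higher and 5 lower, and a median log2 fold change of 0.22. The lower count was 2 or 3 without any culture except OxA 8 h replicate 1. *Vim*, the intermediate filament gene vimentin, had 44307, 42055 and 42199.5 normalized counts in OxA 8 h cultures, against 26588, 24995 and 27184 in vehicle cultures (log2 fold change 0.70, SE 0.042, adjusted p = 7.08e-12), 1 of the largest rises in absolute counts. *Actb* averaged 69689 ± 3803 normalized counts in OxA 8 h cultures and 60075 ± 2967 in vehicle cultures (log2 fold change 0.21, SE 0.046, adjusted p = 0.00121). *Flnc*, a filamin gene, averaged 103 ± 8.36 normalized counts in OxA 8 h cultures and 46.5 ± 6.16 in vehicle cultures, and *Tagln*, a smooth muscle actin-binding gene, 462 ± 23.6 normalized counts in OxA 8 h cultures and 275 ± 1.07 in vehicle cultures. Of the 7 housekeeping genes in the study's qPCR panel 3 were called higher and none lower, with the largest log2 fold change at 0.22, in *Rplp0*.

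Genes that build ribosomes were higher in large numbers and by modest amounts. Ribosome assembly begins in the nucleolus, where RNA polymerase I makes the precursor ribosomal RNA, small nucleolar ribonucleoproteins modify it, and assembly factors join it to ribosomal proteins. Of 68 tested factors of the large subunit 53 were called higher and none lower, with a median log2 fold change of 0.36. Of 56 factors of the small subunit 42 were higher and none lower (median 0.33), of 23 RNA polymerase I genes 15 were higher and none lower (0.33), and of 17 snoRNP genes 11 were higher and none lower (0.30). These stand beside 15.3% higher and 13.1% lower of all genes tested. No single gene in these lists rose 2-fold. *Nop2*, which encodes a ribosomal RNA methyltransferase, had 1501, 1419 and 1472 normalized counts in OxA 8 h cultures, against 782, 767 and 784 in vehicle cultures (log2 fold change 0.91, SE 0.053, adjusted p = 6.15e-12). *Mdn1*, the giant ATPase that releases assembly factors from the large subunit, had 4770.0, 4768 and 4755 normalized counts in OxA 8 h cultures, against 2720.1, 2589.9 and 2991 in vehicle cultures (log2 fold change 0.78, SE 0.048, adjusted p = 1.38e-11), and *Npm1*, the abundant nucleolar protein nucleophosmin, had 5646, 5932 and 6089 normalized counts in OxA 8 h cultures, against 3596, 3523 and 3657 in vehicle cultures (log2 fold change 0.71, SE 0.042, adjusted p = 8.66e-12). Replicates lay close together, and the groups were apart for each of the 3. On the side of transcription, *Polr1b*, a core subunit of RNA polymerase I, had 582, 526 and 555 normalized counts in OxA 8 h cultures, against 306, 328 and 345 in vehicle cultures (log2 fold change 0.76, SE 0.078, adjusted p = 7.26e-08), and *Ddx21*, a nucleolar helicase, averaged 2999 ± 87.1 normalized counts in OxA 8 h cultures and 1746 ± 16.9 in vehicle cultures (log2 fold change 0.78, SE 0.045, adjusted p = 5.62e-12). *Ubtf*, the upstream binding factor of the ribosomal genes, averaged 2950.2 ± 129.8 normalized counts in OxA 8 h cultures and 2705 ± 166 in vehicle cultures and was not called (adjusted p = 0.0734). For the small subunit, *Wdr43* had 1747, 1852 and 1864 normalized counts in OxA 8 h cultures, against 1109, 1055 and 1146 in vehicle cultures (log2 fold change 0.72, SE 0.051, adjusted p = 2.01e-10), and *Utp20*, the most abundant listed, averaged 3188 ± 8.7 normalized counts in OxA 8 h cultures and 2144 ± 120.0 in vehicle cultures (log2 fold change 0.57, SE 0.047, adjusted p = 2.34e-09).

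The canonical E-box CACGTG, which MYC and MAX dimers bind among others, is shown for 3 of these genes because it was more frequent in the ribosome lists. It stood in 23 of 101 promoters of their called members (22.8%), in 3 of 32 of members not called (9.38%) and in 11.4% of all 10248, again with no test. Over all 1742 promoters of genes called higher the share was 14.4%. *Nop2* lies at chr6:125131793-125131858 (plus strand, motif 60 bases before the start), *Wdr43* at chr17:71616220-71616249 (plus strand, motif from base 18 after the start) and *Ccdc86* at chr19:10949226-10949255 (minus strand, motif from base 24 after the start), all from RefSeq on GRCm38.p6 with the motif in capitals.
Nop2: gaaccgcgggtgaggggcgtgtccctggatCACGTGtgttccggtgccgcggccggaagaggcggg
Wdr43: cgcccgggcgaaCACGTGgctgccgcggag
Ccdc86: ctacagaggctaCACGTGagccatggatac

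Genes of translation were higher by smaller amounts. Of 82 tested cytosolic ribosomal protein genes 67 were higher and none lower, with a median log2 fold change of 0.21. *Rpl4* had 8725, 8281 and 8843 normalized counts in OxA 8 h cultures, against 7012, 6787 and 6704 in vehicle cultures (log2 fold change 0.33, SE 0.041, adjusted p = 1.41e-06), and *Rps12* 6613, 6185 and 6281 normalized counts in OxA 8 h cultures, against 5128, 4784 and 5114 in vehicle cultures (log2 fold change 0.34, SE 0.043, adjusted p = 1.83e-06). Ribosomal protein genes have many processed copies, and the share of reads lost or split among them is not known. Of 59 translation factors 33 were higher and 1 lower (lower: 2 without OxA 8 h replicate 1). *Eef1a1*, the elongation factor that brings tRNA to the ribosome, had 46818, 43282 and 44505 normalized counts in OxA 8 h cultures, against 36764, 36277 and 36433 in vehicle cultures (log2 fold change 0.29, SE 0.04, adjusted p = 4.74e-06), and *Pabpc1*, the cytoplasmic poly(A)-binding protein, 3544, 2846 and 2611 normalized counts in OxA 8 h cultures, against 1853, 1690.0 and 1731 in vehicle cultures (log2 fold change 0.77, SE 0.12, adjusted p = 0.00444). Of 22 tRNA synthetase genes 15 were higher and none lower, with *Tars* at 0.52 and *Iars* at 0.47 on the log2 scale, and *Aars*, the most abundant, not called at 7812 ± 489.5 normalized counts in OxA 8 h cultures and 7348 ± 556 in vehicle cultures. Hosts of small nucleolar RNAs and other long noncoding RNAs gave 10 of 23 higher and none lower (lower: 1 without OxA 8 h replicate 2), with *Pvt1*, the neighbour of *Myc* on chromosome 15, at 93.7, 79.9 and 80.6 normalized counts in OxA 8 h cultures, against 37.2, 35.6 and 52.2 in vehicle cultures (log2 fold change 1.02, SE 0.18, adjusted p = 0.000144).

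Genes that supply precursors of protein and nucleic acid were higher in part. In the ATF4 list, genes of amino acid uptake and synthesis that the integrated stress response induces, 17 of 33 were higher and 1 lower. *Slc7a11*, the cystine and glutamate exchanger, had 227, 183 and 216 normalized counts in OxA 8 h cultures, against 108, 94.9 and 85.7 in vehicle cultures (log2 fold change 1.11, SE 0.13, adjusted p = 4.46e-07), *Psat1*, an enzyme of serine synthesis, 2885, 2456 and 2467 normalized counts in OxA 8 h cultures, against 1563, 1442 and 1352 in vehicle cultures (log2 fold change 0.84, SE 0.067, adjusted p = 1.22e-07), and *Asns*, asparagine synthetase, 2841 ± 120.1 normalized counts in OxA 8 h cultures and 1869 ± 64.6 in vehicle cultures (log2 fold change 0.60, SE 0.048, adjusted p = 1.3e-09). By contrast, of 27 endoplasmic reticulum chaperone genes 2 were higher and 5 lower (2 or 3 lower without any 1 culture), and *Hspa5*, the chaperone BiP, averaged 12786 ± 279 normalized counts in OxA 8 h cultures and 12040.5 ± 267 in vehicle cultures (adjusted p = 0.129). Nucleotide synthesis had 16 of 31 higher and 1 lower, with *Nme1* at 0.66 and *Ppat*, the committed step of purine synthesis, at 0.44. Polyamine genes had 9 of 16 higher and 2 lower (lower: 1 without OxA 8 h replicate 3 or vehicle replicates 1 or 2). *Srm*, spermidine synthase, averaged 1139 ± 56.3 normalized counts in OxA 8 h cultures and 702 ± 6.99 in vehicle cultures (log2 fold change 0.69, SE 0.058, adjusted p = 3.44e-09), and *Odc1*, ornithine decarboxylase, 6745 ± 128 normalized counts in OxA 8 h cultures and 4992 ± 103 in vehicle cultures (log2 fold change 0.43, SE 0.041, adjusted p = 2.19e-08). In serine and one-carbon metabolism 11 of 22 were higher and 1 lower (lower: 0 without OxA 8 h replicate 2). Among chaperonins and heat shock chaperones 20 of 42 were higher and 1 lower (lower: 0 without OxA 8 h replicates 1 or 2 or vehicle replicates 1 or 3), with the mitochondrial chaperonin *Hspd1* the largest rise at 0.45.

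Genes of energy metabolism were divided. Nuclear genes of oxidative phosphorylation were near the median of all genes, with 2 of 85 higher, 3 lower and a median log2 fold change of -0.007 (lower: 1 without vehicle replicate 2, 5 without OxA 8 h replicate 1). Mitochondrial ribosomal proteins had 9 of 75 higher and 1 lower (lower: 0 without OxA 8 h replicates 1 or 3 or vehicle replicate 2, 2 without vehicle replicate 3), and proteasome subunits 5 of 46 higher and 2 lower. Shares this close to or below 15.3% and 13.1% contrast with those of the cytosolic ribosome, and the abundant ATP synthase gene *Atp5b* averaged 18678 ± 501 normalized counts in OxA 8 h cultures and 18152 ± 349.6 in vehicle cultures (adjusted p = 0.54). Mitochondrial import and translation factors had 14 of 40 higher and 2 lower (lower: 1 without OxA 8 h replicate 2 or vehicle replicate 2), with *Timm10*, an intermembrane chaperone, at 365, 339 and 347 normalized counts in OxA 8 h cultures, against 201, 194 and 197 in vehicle cultures (log2 fold change 0.82, SE 0.09, adjusted p = 2.03e-07). In glycolysis 13 of 32 were higher and 5 lower. *Hk2*, an inducible hexokinase, had 589.6, 554 and 589.8 normalized counts in OxA 8 h cultures, against 306, 293 and 291 in vehicle cultures (log2 fold change 0.96, SE 0.075, adjusted p = 1.09e-09), and *Ldha*, a lactate dehydrogenase chain, averaged 15914 ± 537 normalized counts in OxA 8 h cultures and 11759 ± 359 in vehicle cultures (log2 fold change 0.43, SE 0.041, adjusted p = 2.37e-08). *Pdk2* and *Pfkm*, a pyruvate dehydrogenase kinase and the muscle-type phosphofructokinase, were lower by 0.65 and 0.52 on the log2 scale. For cholesterol, 8 of 28 were higher and 3 lower.

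**Figure D4:**
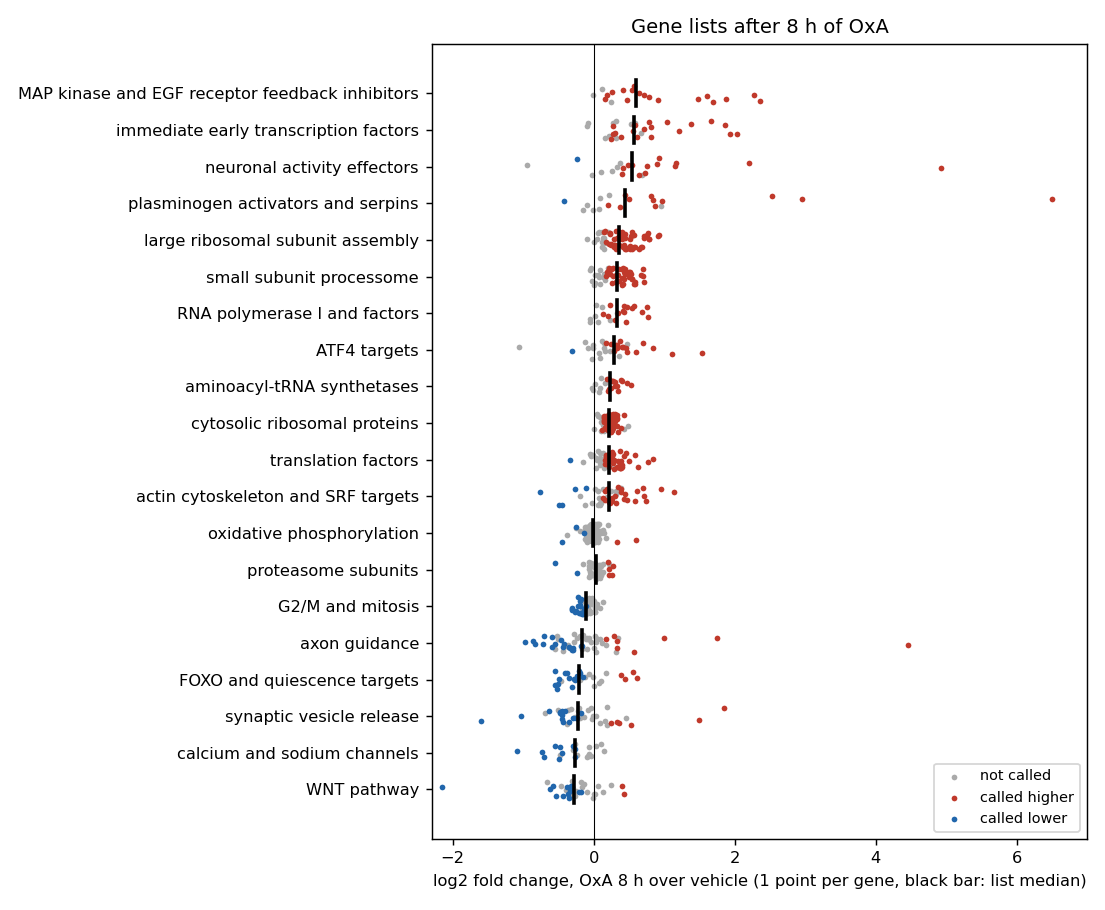
Log2 fold changes of OxA 8 h over vehicle for the tested members of 20 gene lists, 1 point per gene in the colour of its call, with a black bar at the list median. The ribosome lists sit to the right of 0 as narrow clouds (medians 0.33 to 0.36 for assembly, 0.21 for ribosomal proteins), oxidative phosphorylation is centred at -0.007, and the medians of calcium and sodium channels, vesicle release and WNT genes lie to the left of 0, at -0.27, -0.22 and -0.28.

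In genes of neuronal function some transcripts rose steeply while most lists leaned down. Effectors that neuronal activity induces were higher, 13 of 21 with 1 lower and a median log2 fold change of 0.54 (lower: 0 without OxA 8 h replicates 1, 2 or 3 or vehicle replicate 2). *Nptx1*, neuronal pentraxin 1, which clusters glutamate receptors at synapses, had 188, 205 and 212 normalized counts in OxA 8 h cultures, against 44.9, 47.5 and 38.4 in vehicle cultures (log2 fold change 2.20, SE 0.14, adjusted p = 3.67e-11). *Plk2*, an activity-induced kinase, averaged 357 ± 57 normalized counts in OxA 8 h cultures and 159 ± 23.9 in vehicle cultures (log2 fold change 1.16, SE 0.13, adjusted p = 1.63e-06), and *Arc*, the immediate early gene of synaptic scaling, had 1308, 1141 and 1485 normalized counts in OxA 8 h cultures, against 692, 790.1 and 888 in vehicle cultures (log2 fold change 0.72, SE 0.12, adjusted p = 0.00233). *Inhba*, the gene of the activin A subunit, had 73 raw counts over the OxA 8 h cultures and 2 over the vehicle cultures, a ratio of 35.8 after library scaling (exact 95% interval 9.55 to 301, counting error only).

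Among peptide genes, *Vgf*, whose product is cut into several secreted neuropeptides, had 5421, 4540.4 and 4722 normalized counts in OxA 8 h cultures, against 707, 552 and 580.2 in vehicle cultures (log2 fold change 2.99, SE 0.10, adjusted p = 1.71e-07). The line's own hormone gene *Gnrh1*, with the values given above, was lower in each OxA 8 h culture than in each vehicle culture (log2 fold change -0.35, SE 0.049, adjusted p = 1.73e-05). Of 15 tested genes of peptide precursors and processing 4 were higher and 1, *Gnrh1*, was lower (lower: 3 without OxA 8 h replicate 1 or vehicle replicate 1). *Pcsk2*, a prohormone convertase, averaged 109 ± 9.46 normalized counts in OxA 8 h cultures and 116 ± 6.15 in vehicle cultures and was not called (adjusted p = 0.587). Transcription factors of GnRH neurons had 2 of 29 higher (1 without OxA 8 h replicates 2 or 3 or vehicle replicate 1) and 8 lower (4 without vehicle replicate 2, 5 without OxA 8 h replicate 1 or vehicle replicate 1), and the homeodomain factor *Six6* was not called (adjusted p = 0.533). *Pou2f2* averaged 74.8 ± 5.35 normalized counts in OxA 8 h cultures and 107 ± 9.51 in vehicle cultures (log2 fold change -0.53, SE 0.15, adjusted p = 0.00861), and *Nfia* 387 ± 29.3 normalized counts in OxA 8 h cultures and 528 ± 35.1 in vehicle cultures (log2 fold change -0.45, SE 0.079, adjusted p = 0.00011).

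Transmitter genes changed in opposite directions. *Slc17a6*, the vesicular glutamate transporter VGLUT2, had 30.1, 32.3 and 40.3 normalized counts in OxA 8 h cultures, against 10.5, 5.93 and 4.93 in vehicle cultures (log2 fold change 2.22, SE 0.33, adjusted p = 1.42e-05), from low counts. *Gad1*, which encodes the GABA-synthesizing enzyme, had 211, 217 and 249.6 normalized counts in OxA 8 h cultures, against 397, 503 and 478 in vehicle cultures (log2 fold change -1.03, SE 0.098, adjusted p = 2.74e-08). Groups did not overlap for either. *Th*, tyrosine hydroxylase, was not called (adjusted p = 0.773). Synaptic vesicle release had 6 of 41 higher and 15 lower, 9 lower without vehicle replicate 1, with a median log2 fold change of -0.22. Among the 6 higher, the largest rises were in the vesicle glycoprotein genes *Sv2c*, with 352, 299 and 330.1 normalized counts in OxA 8 h cultures, against 123, 124 and 99.5 in vehicle cultures (log2 fold change 1.50, SE 0.11, adjusted p = 4.45e-10), and *Sv2b*, with 46.9, 56.6 and 40.3 normalized counts in OxA 8 h cultures, against 12.4, 17.8 and 9.85 in vehicle cultures (log2 fold change 1.84, SE 0.27, adjusted p = 1.1e-05). The calcium sensor of release *Syt1* had 24.8, 36.8 and 38.1 normalized counts in OxA 8 h cultures, against 76.4, 57.4 and 68 in vehicle cultures (log2 fold change -1.03, SE 0.21, adjusted p = 0.000434), and *Syt13*, a calcium-independent synaptotagmin, 645, 662 and 620.0 normalized counts in OxA 8 h cultures, against 969, 1038 and 967 in vehicle cultures (log2 fold change -0.63, SE 0.06, adjusted p = 2.5e-08). *Sybu*, or syntabulin, which links syntaxin-carrying vesicles to kinesin, had 34.5, 24.3 and 20.1 normalized counts in OxA 8 h cultures, against 90.7, 89 and 63 in vehicle cultures (log2 fold change -1.60, SE 0.22, adjusted p = 4.29e-06).

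Ion channel genes were mostly lower where they changed. Of 22 tested calcium and sodium channel subunits none was called higher (1 without OxA 8 h replicate 3) and 10 were lower, with a median log2 fold change of -0.27. *Scn9a*, the sodium channel Nav1.7, had 49.5, 44 and 49.2 normalized counts in OxA 8 h cultures, against 109.8, 90 and 103 in vehicle cultures (log2 fold change -1.09, SE 0.16, adjusted p = 1.5e-05), and *Cacna1g*, a T-type calcium channel, had 78.7, 72.8 and 88.4 normalized counts in OxA 8 h cultures, against 126, 151 and 110.3 in vehicle cultures (log2 fold change -0.70, SE 0.15, adjusted p = 0.000862). *Cacna1c*, the L-type channel with the most counts, averaged 3981 ± 197 normalized counts in OxA 8 h cultures and 3689.8 ± 86.3 in vehicle cultures and was not called (adjusted p = 0.0839). Of 34 potassium channel genes 5 were higher, 3 without vehicle replicate 1 or OxA 8 h replicate 3, and 7 lower. These are 14.7% and 20.6%, beside 15.3% and 13.1% of all genes. *Kcnj2*, an inward rectifier that helps to set the resting potential, had 62.8, 84.4 and 62.7 normalized counts in OxA 8 h cultures, against 185, 225 and 159 in vehicle cultures (log2 fold change -1.44, SE 0.15, adjusted p = 2.03e-07), and *Kcnh6*, an ERG channel, 24.6 ± 4.85 normalized counts in OxA 8 h cultures and 59.6 ± 11.5 in vehicle cultures (log2 fold change -1.29, SE 0.23, adjusted p = 0.000112). Going up, *Kcnk3*, the acid-sensitive leak channel TASK-1, had 267, 221 and 225 normalized counts in OxA 8 h cultures, against 104, 88 and 92.6 in vehicle cultures (log2 fold change 1.32, SE 0.12, adjusted p = 1.75e-08). Glutamate, GABA and glycine receptor subunits had 4 of 20 higher and 4 lower, 20% each, beside 15.3% and 13.1% of all genes. *Grin2a*, an NMDA receptor subunit, averaged 102 ± 0.838 normalized counts in OxA 8 h cultures and 49.4 ± 15.8 in vehicle cultures (log2 fold change 1.03, SE 0.19, adjusted p = 0.000145), and *Grik2*, a kainate receptor subunit, 157 ± 23.5 normalized counts in OxA 8 h cultures and 271 ± 15.5 in vehicle cultures (log2 fold change -0.81, SE 0.11, adjusted p = 5.27e-06). Of 6 gap junction and pannexin genes 4 were higher and 1 lower (lower: 0 without OxA 8 h replicate 1 or vehicle replicate 1, 2 without OxA 8 h replicate 2), and *Panx1* averaged 352 ± 15.6 normalized counts in OxA 8 h cultures and 206 ± 19 in vehicle cultures (log2 fold change 0.76, SE 0.094, adjusted p = 1.15e-06).

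Guidance and growth genes divided between a few strong rises and many moderate falls. Of 55 tested semaphorins, plexins, ephrins, netrins, slits and their receptors 8 were higher and 18 lower, with a median log2 fold change of -0.17. Besides *Sema7a*, the secreted semaphorin *Sema3e* had 17294, 16143 and 16173 normalized counts in OxA 8 h cultures, against 5271, 4226 and 5223 in vehicle cultures (log2 fold change 1.75, SE 0.08, adjusted p = 3.2e-07). *Sema3c*, the most abundant listed, averaged 28334 ± 1366 normalized counts in OxA 8 h cultures and 34767 ± 823 in vehicle cultures (log2 fold change -0.30, SE 0.042, adjusted p = 5.45e-06), and *Sema6b* had 71.6, 50.3 and 56 normalized counts in OxA 8 h cultures, against 109.8, 119.7 and 120.2 in vehicle cultures (log2 fold change -0.97, SE 0.16, adjusted p = 4.82e-05). Thus the semaphorins did not move together. Among neuronal cytoskeleton genes 2 of 30 were higher and 10 lower, with 6 lower without vehicle replicate 1 and 5 without OxA 8 h replicate 2. *Dpysl3*, a collapsin response mediator of growth cones, had 500.3, 443 and 569 normalized counts in OxA 8 h cultures, against 911, 918 and 955 in vehicle cultures (log2 fold change -0.89, SE 0.074, adjusted p = 4.32e-09), *Map2*, the dendritic microtubule protein, averaged 1264 ± 91.5 normalized counts in OxA 8 h cultures and 1702 ± 125 in vehicle cultures (log2 fold change -0.44, SE 0.06, adjusted p = 6.59e-06), and the kinase *Dclk1*, related to doublecortin, was higher at 1105 ± 72.8 normalized counts in OxA 8 h cultures and 592 ± 49.5 in vehicle cultures (log2 fold change 0.89, SE 0.067, adjusted p = 5.73e-10). In the WNT pathway 2 of 32 were higher (1 without OxA 8 h replicates 1 or 2 or vehicle replicate 1, 4 without vehicle replicate 2) and 13 lower, with a median of -0.28, among them *Nkd1*, an inhibitor that WNT signals induce, at 391 ± 10.4 normalized counts in OxA 8 h cultures and 582 ± 30.2 in vehicle cultures (log2 fold change -0.58, SE 0.073, adjusted p = 1.39e-06), and *Porcn*, the acyltransferase that WNT secretion requires, at 53.5 ± 8.56 normalized counts in OxA 8 h cultures and 82.7 ± 5.69 in vehicle cultures (log2 fold change -0.62, SE 0.17, adjusted p = 0.00735). BMP and TGF-beta genes had 13 of 40 higher and 4 lower. *Bmp2*, a secreted morphogen, averaged 332 ± 29.4 normalized counts in OxA 8 h cultures and 605 ± 50.5 in vehicle cultures (log2 fold change -0.87, SE 0.083, adjusted p = 2.27e-08), and *Tgfbr2*, a TGF-beta receptor, 495 ± 38.5 normalized counts in OxA 8 h cultures and 320.0 ± 16.7 in vehicle cultures (log2 fold change 0.62, SE 0.082, adjusted p = 2.7e-06). For Notch genes, 1 of 13 was higher (2 without OxA 8 h replicate 1) and 4 lower, the ligand *Jag1* at 11403 ± 499 normalized counts in OxA 8 h cultures and 6946 ± 493 in vehicle cultures (log2 fold change 0.71, SE 0.049, adjusted p = 3.37e-10) and the receptor *Notch3* at 309.7 ± 20.2 normalized counts in OxA 8 h cultures and 541 ± 44 in vehicle cultures (log2 fold change -0.81, SE 0.082, adjusted p = 6.55e-08).

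Genes of cell division were lower or not called for the most part. Of 47 tested G2/M genes none was higher (1 without OxA 8 h replicate 1 or vehicle replicate 3) and 19 were lower, 12 without vehicle replicate 1 or OxA 8 h replicate 2, by small amounts with a median log2 fold change of -0.11. *Ccnb2*, a mitotic cyclin, averaged 1373 ± 66.8 normalized counts in OxA 8 h cultures and 1701 ± 74.3 in vehicle cultures (log2 fold change -0.31, SE 0.052, adjusted p = 6.26e-05), and *Mki67*, the proliferation marker, 29209 ± 748 normalized counts in OxA 8 h cultures and 33953 ± 1147 in vehicle cultures (log2 fold change -0.22, SE 0.04, adjusted p = 0.000152). In the G1/S and replication list 4 of 47 were higher and 6 lower, and the helicase gene *Mcm6* was not called (adjusted p = 0.512). The higher count of that list was 1 without vehicle replicate 1 or OxA 8 h replicate 3. Its lower count was 0 without vehicle replicate 1, 1 without vehicle replicate 2 or OxA 8 h replicate 3, and 3 without OxA 8 h replicate 2. *Cdkn1a*, the CDK inhibitor p21, had 1041, 950.3 and 948 normalized counts in OxA 8 h cultures, against 671, 549.8 and 636 in vehicle cultures (log2 fold change 0.66, SE 0.07, adjusted p = 1.67e-07), while *Cdkn1b*, the inhibitor p27, averaged 4396 ± 278 normalized counts in OxA 8 h cultures and 5150.2 ± 161 in vehicle cultures (log2 fold change -0.23, SE 0.046, adjusted p = 0.000424). Targets of FOXO factors and genes of starvation and quiescence had 4 of 28 higher and 15 lower, with a median of -0.20. *Txnip*, which restrains glucose uptake, had 2000.5, 2013 and 2248 normalized counts in OxA 8 h cultures, against 2842, 3061 and 3178 in vehicle cultures (log2 fold change -0.54, SE 0.053, adjusted p = 4.71e-08), and *Sesn1*, a leucine-sensing inhibitor of mTORC1, 1276, 1399 and 1318 normalized counts in OxA 8 h cultures, against 1947, 2062 and 1843 in vehicle cultures (log2 fold change -0.56, SE 0.053, adjusted p = 2.42e-08). *Tsc22d3*, the glucocorticoid-induced leucine zipper gene, averaged 479 ± 11.2 normalized counts in OxA 8 h cultures and 682 ± 77 in vehicle cultures (log2 fold change -0.52, SE 0.077, adjusted p = 1.73e-05).

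Circadian genes had 8 of 24 higher and 5 lower. *Noct*, the nocturnin gene, which is itself induced early by growth signals, had 2235, 2290.4 and 2363 normalized counts in OxA 8 h cultures, against 825, 803 and 896 in vehicle cultures (log2 fold change 1.44, SE 0.053, adjusted p = 1.39e-15), and *Npas2*, a partner of BMAL1, 635, 628 and 616 normalized counts in OxA 8 h cultures, against 309, 287 and 359.6 in vehicle cultures (log2 fold change 0.97, SE 0.08, adjusted p = 2.58e-09). Among the members that fell were *Dbp*, a transcription factor under clock control, with 59.2, 53 and 51.5 normalized counts in OxA 8 h cultures, against 95.5, 94.9 and 113 in vehicle cultures (log2 fold change -0.89, SE 0.16, adjusted p = 0.000138), and *Per3*, with 540.1, 565 and 505 normalized counts in OxA 8 h cultures, against 809, 946 and 799 in vehicle cultures (log2 fold change -0.67, SE 0.073, adjusted p = 1.98e-07). *Clock*, the most abundant listed, averaged 9067 ± 255 normalized counts in OxA 8 h cultures and 7115 ± 241 in vehicle cultures (log2 fold change 0.34, SE 0.041, adjusted p = 6.74e-07). *Per2* averaged 173 ± 18.8 normalized counts in OxA 8 h cultures and 142 ± 25.5 in vehicle cultures and was not called (adjusted p = 0.127).

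Genes of surface and trafficking proteins were among the deepest falls. *Scara5*, a scavenger receptor that takes up ferritin, had 76.9, 95.2 and 67.1 normalized counts in OxA 8 h cultures, against 292, 418 and 298 in vehicle cultures (log2 fold change -2.07, SE 0.16, adjusted p = 7.98e-08). *Npr3*, the clearance receptor of natriuretic peptides, had 103, 104 and 122 normalized counts in OxA 8 h cultures, against 270.2, 321 and 277 in vehicle cultures (log2 fold change -1.41, SE 0.11, adjusted p = 1.81e-09), and *Sgcz*, a sarcoglycan gene, 314, 313 and 319 normalized counts in OxA 8 h cultures, against 731, 743 and 768 in vehicle cultures (log2 fold change -1.25, SE 0.069, adjusted p = 2.28e-12). In all 3 the highest OxA 8 h culture was below the lowest vehicle culture, a condition under which the largest falls were named. *Flrt3*, an adhesion protein that binds latrophilins and UNC5 receptors, had 402, 491 and 469 normalized counts in OxA 8 h cultures, against 1026, 1095 and 1050.1 in vehicle cultures (log2 fold change -1.23, SE 0.07, adjusted p = 3.37e-12). *Aplnr*, the apelin receptor, averaged 106 ± 18.3 normalized counts in OxA 8 h cultures and 242 ± 34 in vehicle cultures (log2 fold change -1.18, SE 0.13, adjusted p = 4.14e-07), and *Pld1*, phospholipase D1, 31 ± 5.16 normalized counts in OxA 8 h cultures and 71.6 ± 12 in vehicle cultures (log2 fold change -1.22, SE 0.20, adjusted p = 5.82e-05). The microtubule genes *Dcdc2a* and *Map7* fell by 1.61 and 1.13 on the log2 scale.

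Where the 8 h cultures stood relative to 3 h was tested directly. The question is which genes differed between the exposures, in a comparison that shares the OxA 8 h cultures with the one above. The vehicle cultures were taken at 8 h only, so time on OxA and time since the fresh medium cannot be told apart here. Of 15278 genes tested 4277 were called (28%), 2096 higher at 8 h (13.7%) and 2181 lower (14.3%). Differences of at least 2-fold (280 genes, 1.83%) were more often falls, 179 genes (1.17%) against 101 rises (0.661%). Of 31 tested immediate early factors none was higher and 26 were lower than at 3 h, with a median log2 difference of -0.80, beside 0.0063 for all genes. Cholesterol genes had 17 of 28 lower and none higher (median -0.41). Ribosomal protein genes ran the other way with 45 of 82 higher and 1 lower (median 0.15).

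Single genes show some of these differences. *Tmem171* averaged 2.93 ± 1.97 normalized counts in vehicle cultures, 14.5 ± 6.91 after 3 h and 97.8 ± 20.8 after 8 h (8 h over 3 h, log2 fold change 2.76, SE 0.26, adjusted p = 8.48e-08). *Spp1* averaged 208 ± 60.3 normalized counts in vehicle cultures, 267 ± 111 after 3 h and 1279.5 ± 274 after 8 h (log2 fold change 2.27, SE 0.34, adjusted p = 0.0116; without OxA 3 h replicate 3, adjusted p = 0.0501), and *Acsbg1*, an acyl-CoA synthetase gene, averaged 38.7 ± 3.73 normalized counts in vehicle cultures, 40.6 ± 18.4 after 3 h and 153 ± 36.6 after 8 h (log2 fold change 1.92, SE 0.25, adjusted p = 8.06e-05). *Timp1* averaged 16.9 ± 1.05 normalized counts in vehicle cultures, 58.5 ± 22.1 after 3 h and 267 ± 72.2 after 8 h (log2 fold change 2.19, SE 0.29, adjusted p = 0.00103), and *Vgf* 613 ± 82.9 normalized counts in vehicle cultures, 2273 ± 462 after 3 h and 4895 ± 465 after 8 h (log2 fold change 1.11, SE 0.16, adjusted p = 0.00753). These genes were highest at 8 h. By comparison *Fosb* averaged 48.9 ± 16.1 normalized counts in vehicle cultures, 543 ± 69.7 after 3 h and 113 ± 18.7 after 8 h (log2 fold change -2.27, SE 0.12, adjusted p = 6.9e-12), *Arc* 790.0 ± 97.7 normalized counts in vehicle cultures, 4922 ± 582 after 3 h and 1311 ± 172 after 8 h (log2 fold change -1.91, SE 0.12, adjusted p = 3.34e-05), and *Sox9*, a developmental transcription factor, 43.9 ± 8.84 normalized counts in vehicle cultures, 577 ± 122 after 3 h and 137 ± 6.9 after 8 h (log2 fold change -2.08, SE 0.14, adjusted p = 2.75e-07). *Errfi1* averaged 532 ± 66.8 normalized counts in vehicle cultures, 7667 ± 744 after 3 h and 2587 ± 310.2 after 8 h (log2 fold change -1.57, SE 0.099, adjusted p = 9.28e-06). All of these were above vehicle at 8 h but well under their level of 3 h. Genes below vehicle at 8 h differed from 3 h as well. *Scara5* averaged 336 ± 71.3 normalized counts in vehicle cultures, 353 ± 50.9 after 3 h and 79.8 ± 14.2 after 8 h (log2 fold change -2.14, SE 0.13, adjusted p = 1.96e-10), and *Gnrh1* 16259 ± 1203 normalized counts in vehicle cultures, 16871 ± 796 after 3 h and 12847 ± 514 after 8 h (log2 fold change -0.40, SE 0.046, adjusted p = 1.43e-06). *Rasgrp1* averaged 2409 ± 103 normalized counts in vehicle cultures, 609 ± 13.2 after 3 h and 1301 ± 57 after 8 h and was thus lower than vehicle yet higher than at 3 h (log2 fold change 1.09, SE 0.06, adjusted p = 1.49e-11).

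**Figure D5:**
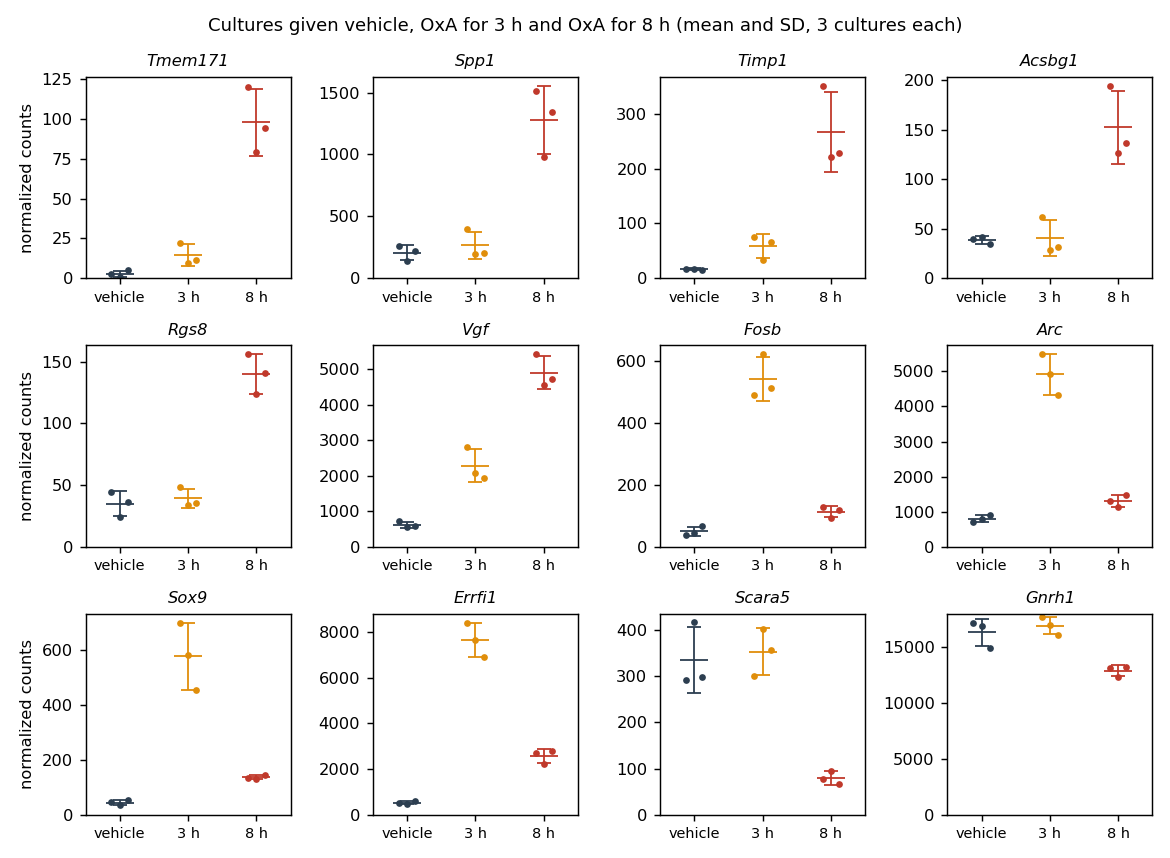
Normalized counts in vehicle cultures and after 3 h and 8 h of OxA for 12 genes, 1 point per culture with the mean and SD of 3, each axis starting at 0. *Tmem171*, *Spp1*, *Timp1*, *Acsbg1*, *Rgs8* and *Vgf* are highest at 8 h, *Fosb*, *Arc*, *Sox9* and *Errfi1* are highest at 3 h, and *Scara5* and *Gnrh1* are lowest at 8 h.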

How the data were processed

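Gene expression was measured by RNA-seq in 9 GT1-7-OX1 cultures, and the deposited counts were whole numbers of reads per gene, not normalized. Per the submitters' processing notes and the study's methods, the authors trimmed reads with Trimmomatic, aligned them to mm10 with STAR 2.5.2a and counted them with HTSeq 0.6.0. The Trimmomatic version is 0.3 in the notes, while the study's methods give a different one. The notes also name DESeq2 1.10.1. Neither the annotation nor the strand setting used for counting is given in the sources used here, so antisense and overlapping genes could share reads.

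Starting from these counts, OxA 8 h was compared with vehicle (3 cultures each, 15407 genes after filterByExpr, of 37411 listed) by the edgeR 4.0.16 quasi-likelihood test with TMM scaling, robust fitting and Benjamini-Hochberg adjustment, in R 4.3.3. A further fit of the same kind compared OxA 8 h with OxA 3 h. Genes were called at an adjusted p under 0.05. TPM values, which scale reads by gene length and library, were taken as the authors deposited them, with gene lengths not given in the sources used here. Their deposited normalized counts and tables of fold changes and p-values were not used. On data simulated from the 8 h and vehicle cultures (15407 genes, 200 changed) the test recovered 89.8% of 2-fold and 100% of 4-fold changes and called 0.0734% of unchanged genes. Simulated spread followed the trend of the same fit and not each gene's own spread, so these are not error rates of the real data. Alternatives were DESeq2 1.42.0, limma-voom (limma 3.58.1), other scalings and filters, a replicate block and leaving out each culture.

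Genes were named by rule. First came the 15 largest rises and 15 largest falls among called genes averaging 50 or more normalized counts without group overlap. Then came up to 5 called members with the largest change and the 2 most abundant members of each of 74 lists. Genes the study names were added, as were the 5 largest differences in each direction between 8 h and 3 h. These differences were taken among genes called in both tests and averaging 50 or more normalized counts over the OxA 8 h and vehicle cultures. *Hcrtr1*, *Hcrtr2*, *Egfr*, *Plau*, *Snap25* and *mt-Rnr2* were chosen after their values were seen. Members and lists were chosen with earlier results of these data known. The labels give 3 replicates per group and the study describes repeated treatments; p-values measure the spread between these cultures. Intervals cover counting error only. Motifs were searched in RefSeq promoters of GRCm38.p6.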

Additional observations from a re-analysis of the deposited data

Results flagged for a closer look

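The genes below differed between the 8 h and 3 h exposures by a direct edgeR quasi-likelihood test over 15278 genes with Benjamini-Hochberg adjustment, and were the 5 largest differences in each direction by the naming rule. Higher at 8 h than at 3 h were *Tmem171* (log2 fold change 2.76, adjusted p = 8.48e-08), *Spp1* (2.27, adjusted p = 0.0116), *Timp1* (2.19, adjusted p = 0.00103), *Acsbg1* (1.92, adjusted p = 8.06e-05) and *Rgs8* (1.84, adjusted p = 7.54e-08). The call of *Spp1* was lost without OxA 3 h replicate 3 (adjusted p = 0.0501). Lower at 8 h than at 3 h were *Fosb* (-2.27, adjusted p = 6.9e-12), *Scara5* (-2.14, adjusted p = 1.96e-10), *Ube2ql1* (-2.09, adjusted p = 6.9e-12), *Sox9* (-2.08, adjusted p = 2.75e-07) and *Arc* (-1.91, adjusted p = 3.34e-05). In each of these genes every OxA 8 h culture lay on the same side of every OxA 3 h culture. The genes were picked for large called differences between these same cultures, so this separation adds no support. The share of all genes separated in this way between 8 h and 3 h was not counted. The fit was repeated without each culture in turn, but with 3 cultures per group no culture was tested for being deviant.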

How the results depend on the processing

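No log2 fold change of a called gene in the text changed sign under the alternatives. The balance of calls did: upper-quartile scaling gave 1994 higher and 2515 lower at 8 h (44.2% higher, against 53.9% with TMM), and 2518 higher and 1887 lower between 8 h and 3 h (57.2%, against 49% with TMM). At 8 h, DESeq2 called 3558 genes. With upper-quartile scaling 6 oxidative phosphorylation genes were lower instead of 3, and 3 peptide genes instead of 1. Counts of at least 2-fold changes moved most: rises numbered 96 with a mean of at least 50 counts and 91 with the DESeq2 fold change prior, and falls 27 and 11, with 62 by DESeq2 without the prior. Between 8 h and 3 h, the 2-fold rises numbered 29 with a mean of at least 50 counts, 61 by DESeq2 and 6 with its prior, and the 2-fold falls 86 and 66 with the mean filter and the prior. A mean filter tests fewer genes and a prior shrinks folds by construction; other causes were not tested. Leaving out 1 culture at a time gave 3376 to 4260 calls at 8 h, 1969 to 2369 higher and 1407 to 1915 lower, with 194 to 240 rises and 73 to 107 falls of 2-fold. Between 8 h and 3 h it gave 3371 to 4166 calls, 1523 to 2080 higher and 1792 to 2086 lower, with 92 to 118 rises and 179 to 202 falls of 2-fold. With the replicate block 5558 genes were called at 8 h (all 4377 among them) and 5348 between 8 h and 3 h. Same-numbered OxA 8 h and vehicle cultures correlated in their deviations at 0.12, 0.0529 and 0.129 and others at -0.126 to 0.0135, so each correlated best with its own number. The labels number the replicates alike in each group and the study describes repeated treatments, but no source states that a number is a run. The main test has no block, as the study's methods describe none. Any pairing of the cultures by number is therefore ignored in it. Of 145 genes named in the text and called at 8 h against vehicle, 140 kept their call in every alternative that gave them an adjusted p. The other 5 lost it in at least 1, and between 8 h and 3 h *Spp1* lost its call. Many of these genes were named for large called changes in the same data. Of all 4377 calls at 8 h, 3263 were shared without vehicle replicate 1, 3543 with DESeq2 and 4377 with the replicate block. Of 2368 list counts compared, 2201 stayed within 1.5 times. Depth limited genes under about 50 counts, where folds are imprecise.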
